A study of Mus musculus with 10 samples.

Results

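Among the differentially methylated regions (DMRs) that distinguished stromal cells of gut-draining from those of skin-draining lymph nodes, those with Gm23272 or Ppp1r12a as the nearest gene were followed CpG by CpG. The rule took every DMR of the authors' 4 deposited tables that named either gene, which gave 7 of 2132 DMRs, 4 near Gm23272 and 3 near Ppp1r12a. Of these, 3 came from the comparison of mesenteric (mLN) with peripheral lymph nodes (pLN) in specific pathogen-free (SPF) mice and 4 from the same comparison in germ-free (GF) mice. Neither table of housing, SPF against GF in mLN or in pLN, named either gene. The 7 DMRs overlapped into 3 stretches among 1602 merged regions, which held 170 of the 24182 CpGs of the deposited table. They are called here the Gm23272 downstream region, the Gm23272 upstream region and the Ppp1r12a upstream region. Since the difference between mLN and pLN chose them, their levels by location are a description and carry no test. The loci had also been picked as large distal elements of opposite direction. Their size, distance from genes and sign of difference are thus a description too.

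Whole-genome bisulfite sequencing measured methylation in non-endothelial stromal cells (SCs) sorted from BALB/c mice. Bisulfite converts unmethylated cytosines only, so that the share of reads keeping a cytosine is the methylation level of a CpG. There were 10 libraries, 3 for each node under SPF housing and 2 for each node under GF housing. As the study describes them, the mice were adult, their age ranges under SPF and GF housing overlapped without being the same, and the sorted cells were podoplanin-positive and negative for CD45, CD31 and Ter119. GF mice carry no microbes; the founders were obtained by caesarean section at a different institution from the SPF colony, so that colony and housing cannot be told apart. One GF replicate of each node had been left out by the authors as an outlier, hence the GF spread covers the kept replicates alone. The labels do not say whether a library came from 1 mouse or from a pool, and a p-value then measures only the spread between these libraries. The sorted cells are a mixture of fibroblastic reticular cells and CD34+ SCs, among others, and a shift in their proportions cannot be told apart from a change within a cell type. Their identity could not be checked here, as the files used hold methylation only. In each library, 99.6% to 99.9% of the CpGs had a value, and the mean over them lay between 48.2% and 52.2%. The read depth behind each value is unknown here.

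Methylation of CpGs is copied at each cell division and is largely stable in differentiated cells. Away from promoters most of the genome is methylated, whereas distal elements bound by transcription factors tend to form short valleys of low methylation that differ between cell types. Ppp1r12a encodes MYPT1, the subunit that directs myosin phosphatase to myosin. Myosin phosphatase relaxes actomyosin by removing the phosphate from myosin light chains. Fibroblastic reticular cells hold the node together with a contractile actomyosin network. Gm23272 is annotated as a small nucleolar RNA, the class that guides chemical modification of other RNAs. The nearest gene is a naming rule based on distance, and does not say which gene, if any, an element acts on.

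The 2 loci, picked for this trait, differed in opposite directions. The Ppp1r12a upstream region, chr10:108067438-108069427 in GRCm38, was less methylated in mLN. Both Gm23272 regions, chr6:143437359-143439299 and chr6:143498579-143501433, were more methylated in mLN. On the annotation of GENCODE M21, 0 genes overlapped any of the 3, so all are intergenic. Gm23272 itself (chr6:143465269-143465397, minus strand) lies between its regions, 26.1 kb from the downstream and 33.2 kb from the upstream region, and these are 59279 bp apart. The transcriptional start site (TSS) of the lincRNA 4930579D09Rik is 34.1 kb from the upstream region, nearly as close as that of Gm23272. The annotated Ppp1r12a gene (chr10:108162193-108284475, plus strand) starts 92.8 kb beyond its region. A processed pseudogene, Gm47999, starts closer, at 73.0 kb.

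To show the sites that carried the difference, a 300-base window rich in them is printed for both Gm23272 regions, plus strand, 5′ to 3′, GRCm38. Capitals mark the CpGs that separated the nodes, with the values of the 5 mLN libraries entirely above or entirely below those of the 5 pLN libraries; other CpGs stay in lower case. The sequence is that of the C57BL/6J reference, and BALB/c may differ from it.
Gm23272 downstream region, chr6:143437782-143438081: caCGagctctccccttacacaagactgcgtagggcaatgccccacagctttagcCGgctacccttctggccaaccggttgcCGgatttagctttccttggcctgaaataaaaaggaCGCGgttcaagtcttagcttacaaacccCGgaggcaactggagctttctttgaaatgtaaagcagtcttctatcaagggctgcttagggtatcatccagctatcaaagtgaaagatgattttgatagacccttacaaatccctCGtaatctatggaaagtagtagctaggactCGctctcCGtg
Gm23272 upstream region, chr6:143500250-143500549: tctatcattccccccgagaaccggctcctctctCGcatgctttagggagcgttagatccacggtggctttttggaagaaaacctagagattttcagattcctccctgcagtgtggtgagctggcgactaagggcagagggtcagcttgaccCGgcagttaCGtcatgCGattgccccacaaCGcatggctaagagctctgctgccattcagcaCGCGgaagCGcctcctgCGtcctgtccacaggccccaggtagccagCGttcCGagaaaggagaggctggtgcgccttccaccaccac
Group values here and below are means ± SD over the libraries, with n = 3 under SPF and n = 2 under GF housing. In the downstream Gm23272 window, 9 of 11 CpGs were in capitals, of 19 such CpGs in the whole region. Averaged over this window, under SPF and GF housing, mLN had 78.4% ± 5.92 and 81.6% ± 4.75, and pLN 29.6% ± 11.9 and 20.1% ± 5.19. The upstream Gm23272 window had a GC content of 58.3%, against 48.3% downstream, and 11 of its 17 CpGs were in capitals, of 29 in the region. Here mLN had 74.6% ± 13.6 (SPF) and 66.7% ± 8.28 (GF), whereas pLN had 22.3% ± 3.98 (SPF) and 19.9% ± 7.98 (GF).

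Over the whole Ppp1r12a upstream region (47 CpGs), the 3 mLN SPF libraries had a mean methylation of 42.6%, 43.7% and 42.9%, and the 2 mLN GF libraries 41.2% and 40.7%. The pLN SPF libraries had 81.9%, 83.1% and 80.4%, and the pLN GF libraries 84.3% and 88.4%. All mLN libraries thus lay within 40.7% to 43.7%, far below every pLN library. The difference, mLN minus pLN, was -38.7 points in SPF and -45.4 points in GF mice.

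In the Gm23272 downstream region (50 CpGs), methylation was 66.8%, 73.7% and 74.3% in mLN SPF and 77.8% and 78.0% in mLN GF. It was 43.9%, 51.2% and 41.8% in pLN SPF and 42.4% and 38.4% in pLN GF. The lowest mLN library, replicate 1 of mLN SPF, remained above the highest pLN library. This region had the smallest SPF difference of the 3, 26.0 points, and 37.5 points in GF mice. In the Gm23272 upstream region (73 CpGs), mLN SPF libraries had 72.7%, 77.7% and 70.1%, and mLN GF libraries 74.1% and 74.0%. The pLN SPF libraries had 32.8%, 35.4% and 33.7%, and the pLN GF libraries 40.8% and 33.9%. Again the nodes did not overlap, and the difference was 39.5 points in SPF and 36.7 points in GF mice.

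The SD within groups, pooled over the 4 groups, was 1.45 points in the Ppp1r12a region, 3.90 in the Gm23272 downstream and 3.07 in the Gm23272 upstream region. The median over the 900 merged regions with at least 10 CpGs was 4.93 points. By number of CpGs, however, the 3 regions ranked 26th, 20th and 9th of all 1602, in the same order. A mean over more CpGs varies less, so nothing is read from their lower SD. Non-overlapping nodes are not particular to these regions. Of all 1602 merged regions, 40.3% had every mLN library above every pLN library and 38.3% had the reverse. Nearly all of them had been called by this contrast.

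**Figure D1:**
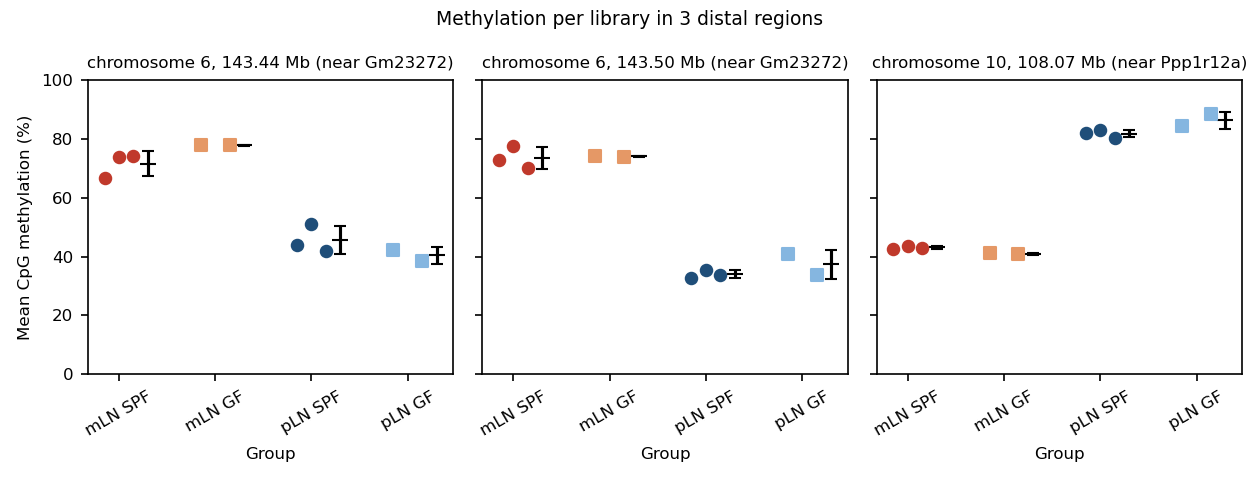
Mean CpG methylation (%, y axis) of each library in the 4 groups (x axis), for the Gm23272 downstream (left), Gm23272 upstream (middle) and Ppp1r12a upstream region (right); points are libraries, and the bars give the mean ± SD of the group. All mLN libraries lie above all pLN libraries in both Gm23272 regions, and between 40.7% and 43.7%, below all pLN libraries, in the Ppp1r12a region.

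All 3 regions were large for the SPF table, but large elements had been picked, so nothing is read from these ranks. By the number of CpGs the authors counted, the SPF DMR of the Gm23272 upstream region (chr6:143498579-143501433, 69 CpGs, 2855 bp) ranked 3rd of 806 SPF location DMRs. That of the Gm23272 downstream region (chr6:143437359-143439299, 50 CpGs, 1941 bp) ranked 11th, and that of Ppp1r12a (chr10:108067438-108069427, 46 CpGs, 1990 bp) ranked 12th. The median of the SPF table was 15 CpGs and 856 bp. Size did not come with an extreme difference. Ranked by the unsmoothed SPF difference among DMRs of the same direction, Ppp1r12a was 83rd of 338, Gm23272 upstream 102nd of 468 and Gm23272 downstream 353rd of 468. Distal position was also common, since 43.4% of the SPF and 42.5% of the GF location DMRs lay beyond 25 kb from a TSS. The median of these distal SPF DMRs was 17 CpGs over 1011 bp.

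The GF table divided the same stretches differently. The Gm23272 downstream region was called as 1 GF DMR of nearly the same extent (chr6:143437380-143439216, 33 CpGs by the authors' count, 5th largest of 1293). In the Gm23272 upstream region, a GF DMR covered chr6:143498880-143499648 (20 CpGs, 769 bp, 57th by CpGs). A further GF DMR inside it, chr6:143500002-143500922, had 4930579D09Rik as its nearest gene and so is not among the 7. The Ppp1r12a region was called as 2 GF DMRs, chr10:108067438-108068222 (13 CpGs, 238th) and chr10:108068636-108069427 (14 CpGs, 195th), against a median of 7 CpGs in the GF table. The authors' smoothed difference was -45.2 points for the SPF DMR of Ppp1r12a and -49.4 and -41.2 points for its GF DMRs. For Gm23272 it was 29.9 points (SPF) and 42.0 points (GF) downstream, and 37.8 points (SPF) and 44.2 points (GF) upstream. The smallest difference that any of the tables listed was 25 points, so the SPF DMR downstream of Gm23272 lay closest to the limit of the members.

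The unsmoothed values of these DMRs were not all as large. They average every CpG listed inside a DMR, which can be more than the authors counted. The listed CpGs were 20 in chr10:108067438-108068222, against 13 by the authors' count, and 14 by both counts in chr10:108068636-108069427. The GF DMRs of Gm23272 had 47 (downstream) and 27 (upstream), against 33 and 20. Smoothed and unsmoothed differences thus do not always rest on the same CpGs. In the GF DMR chr10:108068636-108069427, the mLN GF libraries had 62.1% and 57.0% and the pLN GF libraries 86.2% and 90.2%, a difference of -28.6 points. In chr10:108067438-108068222 the mLN GF libraries had 45.9% and 50.8% and the pLN GF libraries 83.8% and 88.0%, which gave -37.5 points. The stretch between them, chr10:108068223-108068635, belongs to no GF DMR, although its 13 CpGs held a larger difference than either GF DMR. There, the mLN SPF libraries had 9.85%, 19.8% and 8.97%, and the mLN GF libraries 11.4% and 7.69%. The pLN SPF libraries had 69.1%, 80.1% and 79.8%, and the pLN GF libraries 82.9% and 87.1%. The difference was -63.5 points in SPF and -75.4 points in GF mice, and 10 of the 13 CpGs separated the nodes. The same held upstream of Gm23272. Between the 2 GF DMRs of that region, at chr6:143499649-143500001, 5 CpGs in mLN averaged 71.8% ± 12.2 under SPF and 71.1% ± 13.3 under GF housing. In pLN they averaged 13.0% ± 8.36 and 7.17% ± 1.65, so that the difference was 58.8 and 63.9 points. These stretches were set by the borders of the GF DMRs after the values had been seen. The gaps in the GF table are therefore not gaps in the unsmoothed GF difference. The number of reads behind these GF values is unknown, and why the GF calls left gaps there was not tested.

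Beyond the last GF DMR upstream of Gm23272, at chr6:143500923-143501433, the difference of 9.87 points in SPF mice stood against -16.0 points in GF mice. Only 5 CpGs lie there, and none separated the nodes. Within the GF DMR chr6:143498880-143499648, replicate 3 of mLN SPF had 62.0% where the other mLN libraries had 79.5%, 82.4%, 78.5% and 79.2%. It was still above the highest pLN library, 38.3%.

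CpG by CpG, the difference was concentrated in the inner part of each region, where 1 node was low. At Ppp1r12a, the first to the last CpG that separated the nodes spanned 923 bp (chr10:108067846-108068768), and 24 of the 32 CpGs within it did so. Over this inner stretch, mLN had 22.6% ± 1.58 under SPF and 19.3% ± 1.11 under GF housing. In pLN the same CpGs had 78.3% ± 1.71 and 83.2% ± 3.84. The difference reached -55.7 points in SPF and -63.9 points in GF mice. On the flank at the lower coordinate, mLN had 83.0% (SPF) and 82.9% (GF) and pLN 88.7% (SPF) and 91.9% (GF). On the other flank the same order of groups read 90.2%, 91.0%, 89.9% and 93.8%.

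At Gm23272 the low node was pLN. The inner stretch downstream of Gm23272 spanned 964 bp (chr6:143437784-143438747), and 19 of its 24 CpGs separated the nodes. There mLN had 72.8% ± 1.47 (SPF) and 80.0% ± 2.18 (GF), and pLN 28.0% ± 6.64 (SPF) and 21.6% ± 0.765 (GF). Upstream of Gm23272 the inner stretch was longer, 1921 bp (chr6:143498982-143500902), with 29 of 53 CpGs separated. In mLN it had 72.4% ± 4.21 (SPF) and 72.5% ± 0.863 (GF), and in pLN 24.6% ± 1.75 (SPF) and 26.1% ± 3.66 (GF). The flanks of the Gm23272 regions were less alike between nodes than those of Ppp1r12a. On the lower-coordinate flank of the upstream region, 14 CpGs averaged 78.8% to 89.4% in the mLN and 60.8% to 74.9% in the pLN libraries, without overlap. By definition, no single CpG of a flank separated the nodes. On the higher-coordinate flank of the downstream region, the ranges were 78.6% to 82.4% and 63.1% to 75.0%. The remaining flanks overlapped between nodes. On the lower-coordinate flank of the downstream region, mLN had 52.4% to 75.0% and pLN 46.7% to 60.7%. On the higher-coordinate flank of the upstream region, mLN had 55.0% to 70.1% and pLN 37.3% to 67.9%, and the difference was 15.9 points in SPF and -6.88 points in GF mice. In pLN the flanks of the Gm23272 regions were thus only partly methylated, and in mLN so were the flanks that overlapped. On these, mLN averaged 65.4% (SPF) and 73.2% (GF) downstream, and 64.6% (SPF) and 56.1% (GF) upstream. The inner stretches were likewise chosen from these values.

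**Figure D2:**
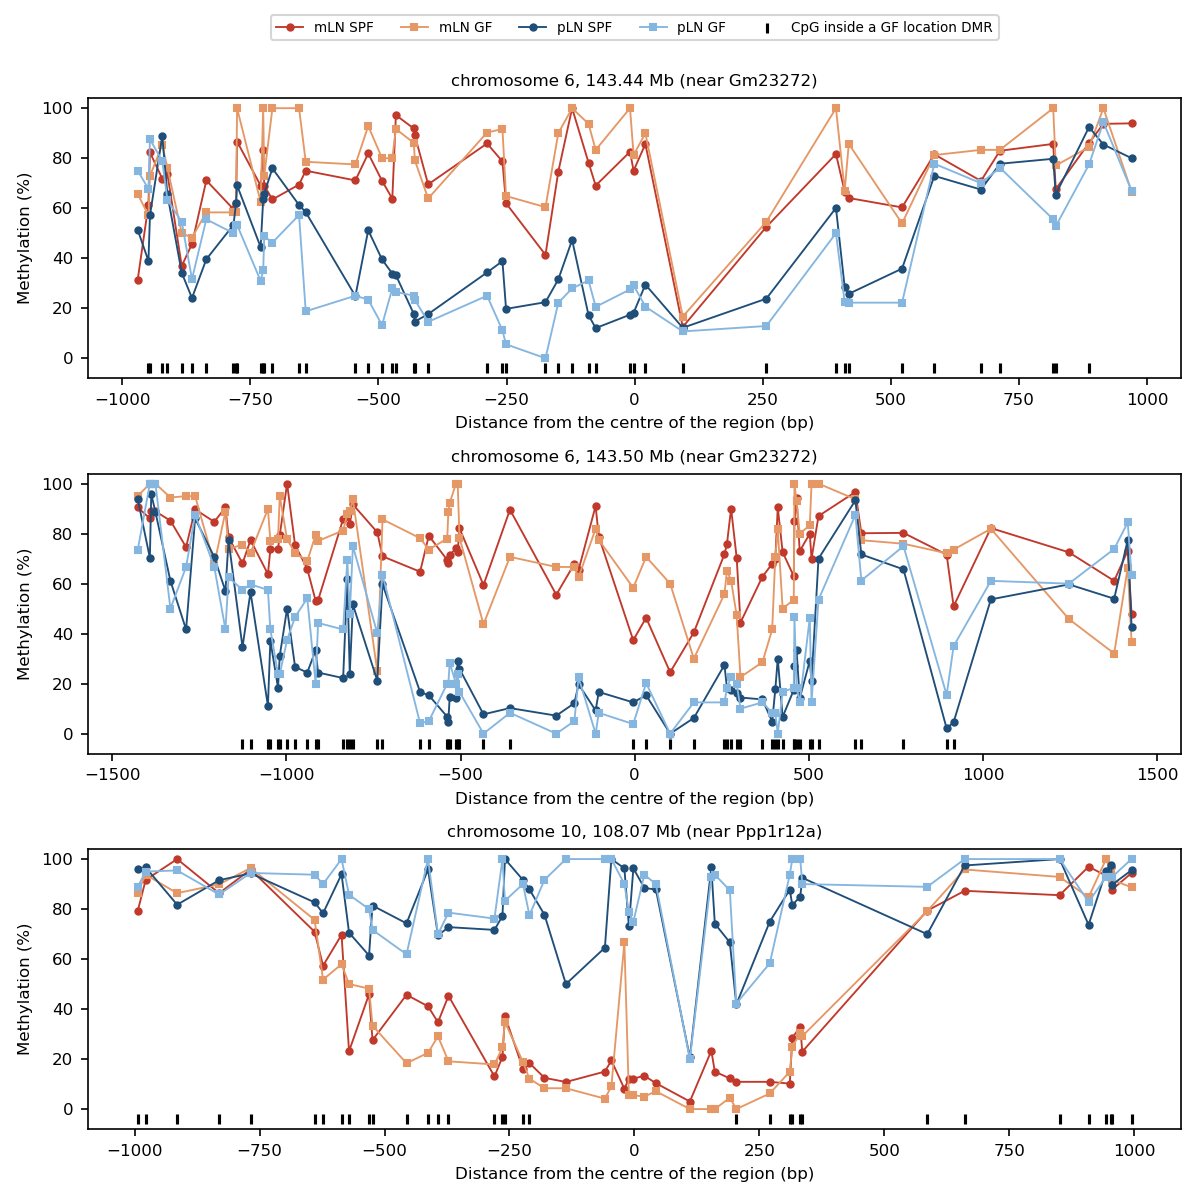
Methylation of each CpG (%, y axis) against its distance from the centre of the region (bp, x axis), for the Gm23272 downstream (top), Gm23272 upstream (middle) and Ppp1r12a upstream region (bottom); points are group means of 2 or 3 libraries joined in order, and black ticks mark CpGs inside any GF location DMR. The nodes part in the middle of each region, with mLN low at Ppp1r12a (22.6% and 19.3% over the inner stretch) and pLN low at Gm23272.

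Over the complete regions, 24 of 47 CpGs (51.1%) of Ppp1r12a were lower in every mLN library than in every pLN library, against 14.9% of all CpGs in the DMR tables. Downstream of Gm23272, 19 of 50 CpGs (38.0%) were higher in every mLN library, and upstream 29 of 73 (39.7%), against 18.1% of all CpGs. The background counts each direction over DMRs of both directions, whereas the direction of the members was set by the rule, and nothing is read from the excess. No CpG of the 3 regions was separated in the direction opposite to its region. The difference of single CpGs had a median of -47.6 points at Ppp1r12a and ranged from -84.7 to 14.7 points. It had a median of 31.0 points (range -15.8 to 69.0) downstream and 41.4 points (range -12.4 to 81.9) upstream of Gm23272.

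Part of the CpGs were nearly unmethylated in the low node. At Ppp1r12a, 18 CpGs had a mean under 20% in mLN and 0 in pLN, while 31 CpGs were above 80% in pLN and 12 in mLN. Upstream of Gm23272, 29 CpGs were under 20% in pLN and 0 in mLN, and 27 were above 80% in mLN and 7 in pLN. Downstream of Gm23272 the contrast was less full, with 7 CpGs under 20% in pLN and 1 in mLN, and 21 above 80% in mLN and 3 in pLN.

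The CpG with the largest difference at Ppp1r12a was at position 108068386 of chromosome 10. It was at 22.2%, 25% and 11.1% in mLN SPF, at 18.2% and 0% in mLN GF, and at 100% in all 5 pLN libraries. Downstream of Gm23272 it was position 143437898 of chromosome 6, with 92.3%, 83.3% and 100% in mLN SPF, 83.3% and 88.9% in mLN GF, 15.4%, 28.6% and 9.09% in pLN SPF, and 50.0% and 0% in pLN GF. Upstream of Gm23272 it was position 143499894, with 100%, 85.7% and 87.5% in mLN SPF, 75.0% and 88.9% in mLN GF, 11.1%, 0% and 16.7% in pLN SPF, and 0% in both pLN GF libraries. Single CpGs rest on an unknown number of reads each and varied more than the regions. At position 108068412 of chromosome 10, for example, replicate 2 of mLN GF had 100% where the other mLN libraries had 0%, 14.3%, 10.0% and 33.3%, and the neighbouring CpGs of that library were low.

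Some CpGs within the regions differed little between the nodes or were low or high in both. Position 143438423, downstream of Gm23272, was low in all groups, at 12.5% in mLN SPF, 16.7% in mLN GF, 12.2% in pLN SPF and 10.7% in pLN GF. At position 108068543, in the inner stretch of Ppp1r12a, pLN was also low, with 20.6% under SPF and 20% under GF housing, against 3.03% and 0% in mLN. Conversely, position 143500640, in the inner stretch of the Gm23272 upstream region, was high throughout, at 96.7% and 93.8% in mLN and 93.3% and 87.5% in pLN. The CpGs on either side of it, 143500534 and 143500657, averaged 63.4% and 67.5% over the pLN libraries. Hence pLN was not low at every CpG of this inner stretch.

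The CpGs of a region shared the pattern in SPF and GF mice. The correlation of the SPF with the GF difference across CpGs was r = 0.82 over 47 CpGs at Ppp1r12a, r = 0.68 over 50 CpGs downstream and r = 0.68 over 73 CpGs upstream of Gm23272. Neighbouring CpGs share reads and the same libraries, and are not independent. Every member also overlaps a DMR of both location tables, so the rule itself favoured a shared sign and profile. The correlations and the counts of signs are therefore a description, and nothing is read from them. The sign of the region was found at 43 CpGs in SPF and 42 in GF mice at Ppp1r12a, at 45 and 45 CpGs downstream, and at 70 and 65 CpGs upstream of Gm23272.

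**Figure D3:**
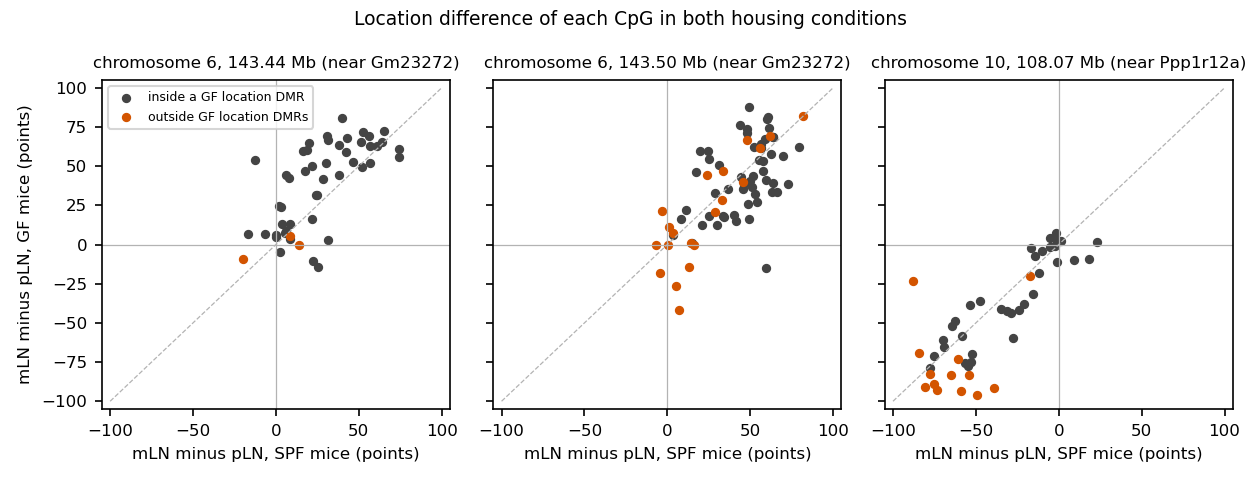
Difference mLN minus pLN of each CpG in SPF mice (points, x axis) and in GF mice (points, y axis), for the Gm23272 downstream (left, 50 CpGs), Gm23272 upstream (middle, 73 CpGs) and Ppp1r12a upstream region (right, 47 CpGs); the broken line marks equal differences, and orange points are CpGs outside all GF location DMRs. At Ppp1r12a many orange points lie at the most negative differences, in the stretch with -63.5 points in SPF and -75.4 points in GF mice.

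Housing was compared next. The rule also searched the housing tables and found no member there, so it was known beforehand that the authors had called no housing DMR near either gene. In a limma model with location and housing over all 10 libraries, SPF minus GF was -1.21 points at Ppp1r12a (SE 2.73, 95% interval -7.16 to 4.74, limma adjusted p = 0.991). It was -0.518 points downstream of Gm23272 (SE 3.46, 95% interval -8.06 to 7.02, limma adjusted p = 0.997) and -1.95 points upstream (SE 2.87, 95% interval -8.19 to 4.29, limma adjusted p = 0.991). These intervals leave room for effects of several points. Over the other settings on the percent scale their limits widened to -17.1 and 15.8 points, both at Gm23272 downstream with each node fitted alone. Of all 1602 merged regions, limma called 0 for housing (0%), while 72 had an unadjusted p under 0.05. The median absolute housing effect over all regions was 2.75 points, so the 3 regions were below the middle. Their means rest on more CpGs than those of most regions and vary less, so nothing is read from this.

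In the Gm23272 downstream region, the housing estimates of the 2 nodes had opposite signs. In mLN, both GF libraries (77.8% and 78.0%) were above all SPF libraries (66.8% to 74.3%), and in pLN the GF mean was lower, 40.4% against 45.6%. Fitted in each node alone, SPF minus GF was -6.29 points in mLN (limma adjusted p = 0.859) and 5.26 points in pLN (limma adjusted p = 0.789). The interaction, the SPF minus the GF location difference, was -11.5 points (SE 6.24, 95% interval -25.3 to 2.17). At Ppp1r12a the interaction was 6.69 points (SE 5.21, 95% interval -4.78 to 18.1), and upstream of Gm23272 it was 2.84 points (SE 5.81, 95% interval -9.93 to 15.6). Every member overlaps a DMR of both location tables, which selects against an interaction, so these estimates are a description and carry no test. Of the 1602 regions, limma called 0 for the interaction (0%), and 141 had an unadjusted p under 0.05.

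By sequence, the CpG density of the 3 regions was above the median of long regions. They held 2.36 (Ppp1r12a), 2.58 (Gm23272 downstream) and 2.56 (Gm23272 upstream) CpGs per 100 bp, against a median of 1.86 over the 428 merged regions of at least 1000 bp. The ratio of observed to expected CpGs was 0.537, 0.488 and 0.506 in the same order, ranks 34, 71 and 54 of 428, where the median was 0.369. GC content was 42.0%, 46.0% and 45.0%, close to the median of 45.5%. Repeats masked in the reference covered 12.1%, 5.92% and 10.5% of the bases. The CpG table used here listed all 47, 50 and 73 CpGs of the reference in these regions.

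Short letters of transcription factor motifs were searched on both strands of the 300-base window centred on each region, and of all 1602 windows. These centred windows differ from those printed. The Meis core TGACAG matched once at Ppp1r12a (22.9% of all windows hold it), as did the GATA core GATAA (39.7%). The Runx letters TGTGGT matched once (18.5%) and the Sox core ACAAAG matched at 2 places (24.4%) upstream of Gm23272. The Tead letters GGAATG matched once downstream of Gm23272 (18.9%). The E-box CANNTG, present in 79.3% of all windows, matched once at Ppp1r12a, at 3 places downstream and once upstream of Gm23272. None of the 3 windows held the homeobox core TAATTA (9.55% of all windows), the Nkx2 core CACTTG (16.4%), the AP-1 letters TGANTCA (10.0%) or the IRF letters, GAAA repeated after any 2 bases (4.99%). A match describes the letters only.

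DMRs around the loci were listed next. Within 1 Mb of the Gm23272 regions there were 11 further DMRs, and 8 of these were more methylated in mLN. By unsmoothed values this direction held for 468 of all 806 SPF and 600 of all 1293 GF location DMRs, and nothing is read from the count. The 11 DMRs are also not separate loci. Those of Gm766 overlap into a single stretch, and chr6:143571017-143572519 overlaps chr6:143572038-143572677. Another lies inside the Gm23272 upstream region. At D6Ertd474e, a lincRNA, chr6:143296995-143298064 was higher in mLN by 32.6 points in SPF and 35.6 points in GF libraries, and chr6:143298428-143298808 by 12.2 and 22.4 points. Near 4930579D09Rik, chr6:143571017-143572519 was higher by 32.1 and 37.9 points, and chr6:143572038-143572677 by 22.9 and 30.3 points. The GF DMR of this gene inside the Gm23272 upstream region was higher by 44.1 and 42.2 points. Sox5, a transcription factor of chondrocyte and neural development, had DMRs at chr6:143859559-143860525, with 30.0 and 27.4 points, and at chr6:144264231-144264884, with 40.2 and 47.7 points. Its antisense neighbour Sox5os1 had 29.6 and 33.9 points at chr6:143997469-143997747. The 3 DMRs that went the other way were nearest to Gm766, named Sult6b2 in the annotation. The longest, chr6:142794970-142796716, differed by -30.7 points in SPF and -37.3 points in GF libraries. The other DMRs of Gm766, at chr6:142794927-142795670 and chr6:142796214-142796716, differed by -26.3 and -18.1 points in SPF and by -35.8 and -24.8 points in GF libraries.

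**Figure D4:**
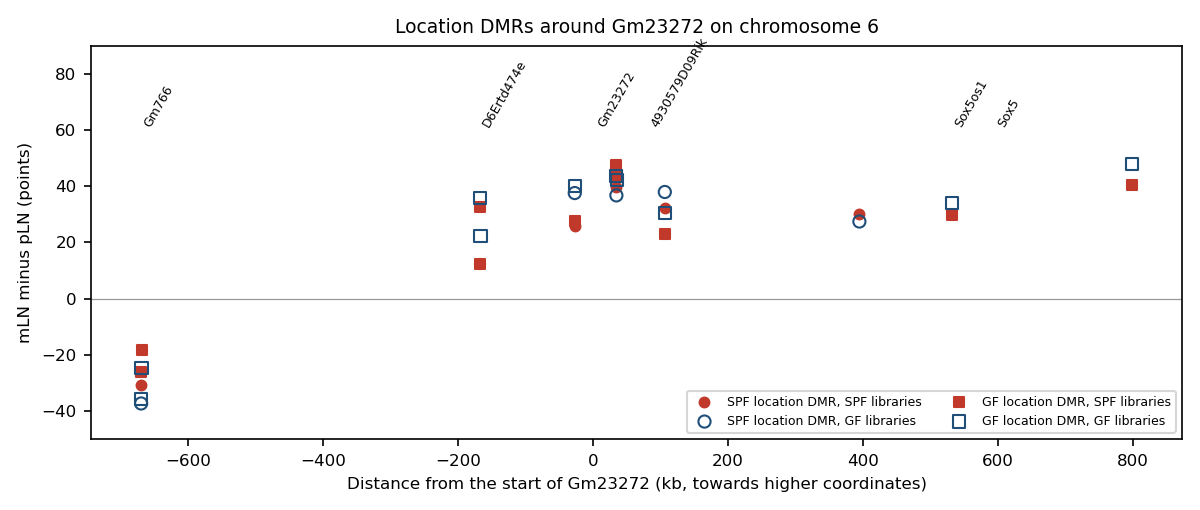
Difference mLN minus pLN (points, y axis) of every location DMR within 1 Mb of the Gm23272 regions against its distance from Gm23272 (kb, x axis); circles are SPF and squares GF location DMRs, filled red symbols give the SPF and open blue symbols the GF libraries, and names give the nearest gene. From D6Ertd474e to Sox5 each DMR lies above 0, and the DMRs of Gm766 lie below, down to -37.3 points.

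Around Ppp1r12a, 5 further DMRs were listed within 1 Mb, with both directions among them. Myf5, a regulator of skeletal muscle, had a DMR at chr10:107484187-107484824 with a difference of -12.7 points in SPF and -23.5 points in GF libraries. Otogl, a gene of the inner ear, had -23.6 and -27.7 points at chr10:107870320-107871217. Syt1, the calcium sensor of synaptic vesicles, was higher at chr10:108583771-108584094 by 40.8 and 33.6 points and at the overlapping GF DMR chr10:108583771-108584154 by 40.8 and 32.6 points. The remaining Syt1 DMR, chr10:108584656-108584674, has 3 CpGs, at which the unsmoothed difference was -3.47 points in SPF and -5.00 points in GF libraries, while the authors' smoothed difference was 32.0 points in SPF mice. Of the 10 protein-coding genes within 1 Mb of the Ppp1r12a region, Myf5, Otogl, Ppp1r12a and Syt1 were the nearest gene of a DMR. The other 6, Acss3, Lin7a, Myf6, Ptprq, Pawr and Gm5136, were not. Around Gm23272, the same was found for Sult6b2 and Sox5, and not for Gys2, Ldhb, Kcnj8, Abcc9, Cmas, St8sia1, C2cd5 and Etnk1.

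Regions elsewhere with the most similar levels were named for the longest region of each locus, by the root mean square difference over the 10 libraries among regions of at least 10 CpGs. The Gm23272 upstream region was most like a region near Egflam (3.31 points), which encodes the matrix protein pikachurin, one near Klb (3.70 points), the co-receptor beta-Klotho, and one near 4930546C10Rik (4.07 points). The Egflam region had 70.8% and 71.7% in mLN SPF and GF and 36.6% and 37.9% in pLN SPF and GF. The Ppp1r12a region was most like regions near Gm23093 (4.49 points), Snx18 (4.91 points), an endosomal sorting nexin, and Arsg (5.31 points), an arylsulfatase of lysosomes. The Gm23093 region had 45.0% and 45.8% in mLN SPF and GF and 81.7% and 83.6% in pLN SPF and GF. Likeness of levels is a description of these 10 libraries.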

How the data were processed

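Fractions of methylated reads per CpG and library, deposited for CpGs inside DMRs, were converted to percent and averaged within each region (differences in points). Per the labels and the methods of the study, the authors trimmed reads (FastQC 0.11.1, cutadapt 1.4), aligned them to GRCm38 with BSMAP 2.4.3, kept unique, paired, de-duplicated reads, required a minimum coverage and called DMRs with bsseq on smoothed levels. Other deposited columns hold the authors' group means, used only as such, and their mean difference and areaStat statistic, which were not used. No read counts per CpG were used, so no counting error is given. All 24182 positions carry CG in GRCm38.

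DMRs sharing 1 bp or more were joined, which gave 1602 regions. A CpG entered if each group had a library with a value. Replicates of a group had the same value at 11.4% to 14.2% of CpGs, and all were kept. Groups and replicate numbers came from the sample titles. The tissue label of the pLN samples reads as a skin-draining mesenteric node, in which the word mesenteric goes against their titles. Housing was tested and the interaction estimated with limma 3.58.1 (R 4.3.3; lmFit, eBayes; Benjamini-Hochberg over all regions, threshold 0.05) and checked on simulated data. Alternatives were the median over CpGs, trimmed regions, complete CpGs, a logit scale, longer regions, each node alone, a replicate block and leaving out each library. Sequences were read with samtools 1.23.1, genes from GENCODE M21. The named DMRs were all those nearest to either gene, all DMRs and protein-coding genes within 1 Mb, and the 3 most alike regions. Members and motifs were chosen with earlier results of these data known; single CpGs and inner stretches were chosen after their values were seen. No read depth filter could be varied. A planned list of related genes and 1 sequence window are not reported here.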

Additional observations from a re-analysis of the deposited data

How the results depend on the processing

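The housing test called 0 regions under every alternative. The interaction, which was not fitted with each node alone, also had 0 regions called wherever it was fitted. For the members it remains a description. Over the alternatives, adjusted p from limma for housing at the 3 regions ranged from 0.789 to 0.999. On the percent scale, the limits of the housing intervals reached -10.8 and 7.81 (Ppp1r12a), -11.8 and 8.84 (Gm23272 downstream) and -14.3 and 6.44 points (Gm23272 upstream) with both nodes and all libraries, and -17.1 and 15.8 points with each node alone. The housing estimate turned sign at Gm23272 downstream without the outer 2 CpGs at each end (0.0638 points) and in pLN alone (5.26 points), and at Ppp1r12a in mLN alone (2.13 points). Leaving out 1 library gave housing estimates of -2.62 to 1.10 points downstream and -3.03 to -0.303 points upstream of Gm23272 and of -2.07 to 0.609 points at Ppp1r12a. The sign turned downstream without mLN GF replicate 1 (0.768), mLN GF replicate 2 (0.860) or mLN SPF replicate 1 (1.10), and at Ppp1r12a without pLN GF replicate 2 (0.609). Interaction estimates then were -13.6 to -8.78 and -0.587 to 6.27 points for Gm23272 downstream and upstream, the latter negative without pLN GF replicate 1, and 3.94 to 8.73 points for Ppp1r12a.

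Location differences of the DMRs kept their sign under all settings tried. The same libraries and difference had chosen these DMRs, so a kept sign was largely set beforehand and nothing is read from it. With the median over CpGs in place of the mean, they were -60.4 (Ppp1r12a, SPF), 51.0 and 30.8 (Gm23272 upstream and downstream, SPF), 48.8 (Gm23272 downstream, GF), and -43.3 and -16.0 points (the Ppp1r12a GF DMRs starting at 108067438 and 108068636). Without the outer 2 CpGs at each end, the SPF DMR of Ppp1r12a gave -41.7 and the GF DMR downstream of Gm23272 43.6 points. Over the merged region the GF difference was 37.5 points downstream and 36.7 points upstream of Gm23272, and -45.4 points at Ppp1r12a. Leaving out 1 library gave -39.4 to -38.1 (Ppp1r12a, SPF), 37.4 to 41.2 and 24.1 to 28.7 (Gm23272 upstream and downstream, SPF), 38.4 to 41.6 and 40.5 to 46.8 (Gm23272 downstream and upstream, GF), and -40.0 to -35.1 and -31.2 to -26.1 points (Ppp1r12a, GF). Upstream of Gm23272, 55 CpGs differed by at least 25 points, against 29 separated; leaving out 1 library, 30 to 36 were separated. A limit of 0.35 on the authors' difference left 6 of the 7 DMRs.

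Over 13 pairs of libraries with the same replicate number, the correlation of their deviations from the group means was -0.037 to 0.048. This cannot exclude that mLN and pLN libraries of a number shared mice. Pairs of an SPF with a GF library cannot share a mouse, and replicate deviations mirror each other within each GF group. The noise from read depth is also unknown. With the number as a replicate block, housing was -0.827 (Ppp1r12a), -0.227 (Gm23272 downstream) and -1.05 points (Gm23272 upstream), 0 regions were called, and 52 for housing and 139 for the interaction had an unadjusted p under 0.05. A test of the location difference in libraries that had played no part in a call gave no value, because every member overlaps a DMR of the other location table. Depth could not be varied.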
